A study of Homo sapiens with 18 samples.

Results

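The miR-99/100, miR-125 and miR-10 families were followed in HCT116 cells grown to increasing density, by the 5p arms of their 7 members. The members were chosen by name, as the small-RNAseq entries HSA-MIR-99A-5P, HSA-MIR-99B-5P, HSA-MIR-100-5P, HSA-MIR-125A-5P, HSA-MIR-125B-5P, HSA-MIR-10A-5P and HSA-MIR-10B-5P, written miR-99a-5p and so on from here, and all 7 were found among the 2167 mature miRNAs listed. HCT116 is a human colorectal carcinoma line, and wild-type cells were used on every day. Small RNAs of whole cell RNA were sequenced in 9 libraries, 3 each on day 3 (50% confluency), day 5 (250% confluency) and day 7 (400% confluency in the labels), with numbered biological replicates on each day. Whole transcriptome RNAseq values were used for 3 libraries of day 3 and 3 of day 5, while those of day 7 were not used here. Density and days in culture moved together, so their parts cannot be told apart, and all cells were of 1 line.

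A miRNA is cut from a hairpin precursor as a duplex whose 5p or 3p arm is loaded into an Argonaute protein, and bases 2 to 8 of the loaded arm, the seed, guide it to matching sites that lie mostly in the 3′UTRs of mRNAs. The 3 families are related in sequence and ancestry. miR-10a and miR-10b lie inside the HOXB and HOXD clusters of developmental transcription factors, while miR-99 or miR-100 shares clusters with a let-7 and a miR-125 gene. miR-125 is known for restraining LIN28, the inhibitor of let-7 maturation, and miR-99/100 for targets in the mTOR and insulin-like growth factor pathways.

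The mature sequences show what sets the families apart, and the seed is in capitals. The RefSeq table used here (GRCh38.p14) gave the sequences of 6 of the 7 members, and miR-10b-5p is named only.
miR-100-5p: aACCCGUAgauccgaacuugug
miR-99a-5p: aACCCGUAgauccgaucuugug
miR-99b-5p: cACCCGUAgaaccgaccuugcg
miR-10a-5p: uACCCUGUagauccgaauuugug
miR-125a-5p: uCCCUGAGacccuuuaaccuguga
miR-125b-5p: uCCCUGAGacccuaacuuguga
The miR-99/100 seed (ACCCGUA) and the miR-10a seed (ACCCUGU) start with the same 4 bases, and miR-10a-5p is 3 edits away from miR-100-5p. Counted from 1 at the 5′ end, miR-99a-5p differs from miR-100-5p by the single substitution A16U, and miR-99b-5p differs from it by A1C, U11A, A16C and U21C. miR-125a-5p and miR-125b-5p share a seed (CCCUGAG) and are 3 edits apart.

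The 7 mature members come from 8 hairpins, on 5 chromosomes of GRCh38. MIR99B, at chr19:51692612-51692681 on the plus strand, is followed by MIRLET7E and by MIR125A, which ends at position 51693339, so that these 3 hairpins span 728 bases. They lie in introns of SPACA6, except that MIR125A is partly exonic in 1 of the 2 SPACA6 transcripts that span it. MIR100, at chr11:122152229-122152308 on the minus strand, MIRLET7A2 and MIR125B1 span 52552 bases, all in introns of the noncoding MIR100HG. MIR99A, MIRLET7C and MIR125B2 are placed in the same order on chromosome 21, within MIR99AHG. MIR10A (chr17:48579838-48579947, minus strand) lies in HOXB3 introns and also in an exon of a noncoding gene known by its identifier, ENSG00000257178. MIR10B (chr2:176150303-176150412, plus strand) lies in an intron of HOXD3. MIR125B1 and MIR125B2 give an identical miR-125b-5p, so its value can hold the products of both chromosomes 11 and 21.

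The deposited small-RNAseq values are log2 levels that the methods tie to TMM normalization in edgeR, without giving the total they are scaled to, and the files do not give the number of reads behind a value. Summed after undoing the log2, the mature miRNAs came to between 1542087 and 1947371 per library on days 3 and 5 and to between 2452607 and 2600754 on day 7. Replicate 3 of day 3 had the lowest total, and each of the 7 members was lower in it than in the other day 3 libraries on the deposited scale. Changes on that scale are therefore given beside library totals, in which each value is divided by the total of its own library and given in parts per 1000000 of that total (ppm). The paper reports a global rise of miRNA reads at high density, and library totals take out any rise common to all miRNAs. A lower value on library totals is thus a lower share of the total. The other scale sets the middle value of the well-expressed miRNAs equal between libraries (median centring). Of 8 epithelial markers, 7 were expressed in the whole transcriptome libraries, with EPCAM between 6932 and 7403 normalized counts, while the intestinal brush border gene VIL1 had 1 to 5 reads per library. The summed level of the 8 ranged from 38162 to 56697 on day 3 and from 105857 to 106394 on day 5. Of 7 markers of other cell types, 6 were listed, with sums of 595 to 636 on day 3 and 1241 to 1342 on day 5. Most of these sums was COL1A1, listed for fibroblasts beside COL1A2 and DCN, which was higher on day 5 by 1.12 ± 0.09 (limma, adjusted p = 0.000289). ACTA2, listed for smooth muscle, was also higher (1.23 ± 0.22, limma, adjusted p = 0.0045). COL1A2 had 9 to 23 reads per library and did not pass. PTPRC, the leukocyte marker, and DCN were at 0 to 7 reads in each library. The part of these markers in the miRNA values was not tested.

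miR-100-5p was the most abundant mature miRNA in all 9 libraries, and the 7 members together made up 25.8% ± 1.59 of the mature miRNA total on day 3, 20.5% ± 0.794 on day 5 and 21.6% ± 0.610 on day 7 (SD, n = 3 libraries each). In 8 of the 9 libraries the members stood in the order miR-100-5p, miR-10a-5p, miR-99b-5p, miR-125a-5p, miR-125b-5p, miR-10b-5p and miR-99a-5p. The exception was replicate 2 of day 3, in which miR-125b-5p stood above miR-125a-5p. Within a library, miR-125a-5p lay between 0.05 log2 units below and 0.03 above miR-125b-5p on day 3, and these neighbours did not differ beyond their spread. On days 5 and 7 miR-125a-5p was the higher in each library, by 0.12 to 0.21 log2 units. Every other pair of neighbours kept a gap of at least 0.56 log2 units in every library. miR-10a-5p ranked 4th or 5th of 2167, miR-99b-5p between 8th and 12th, both miR-125 members between 23rd and 30th, and miR-10b-5p between 39th and 44th. miR-99a-5p ranked between 228th and 281st. Library preparation captures different miRNAs with unequal efficiency, so the order is one of library values.

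**Figure D1:**
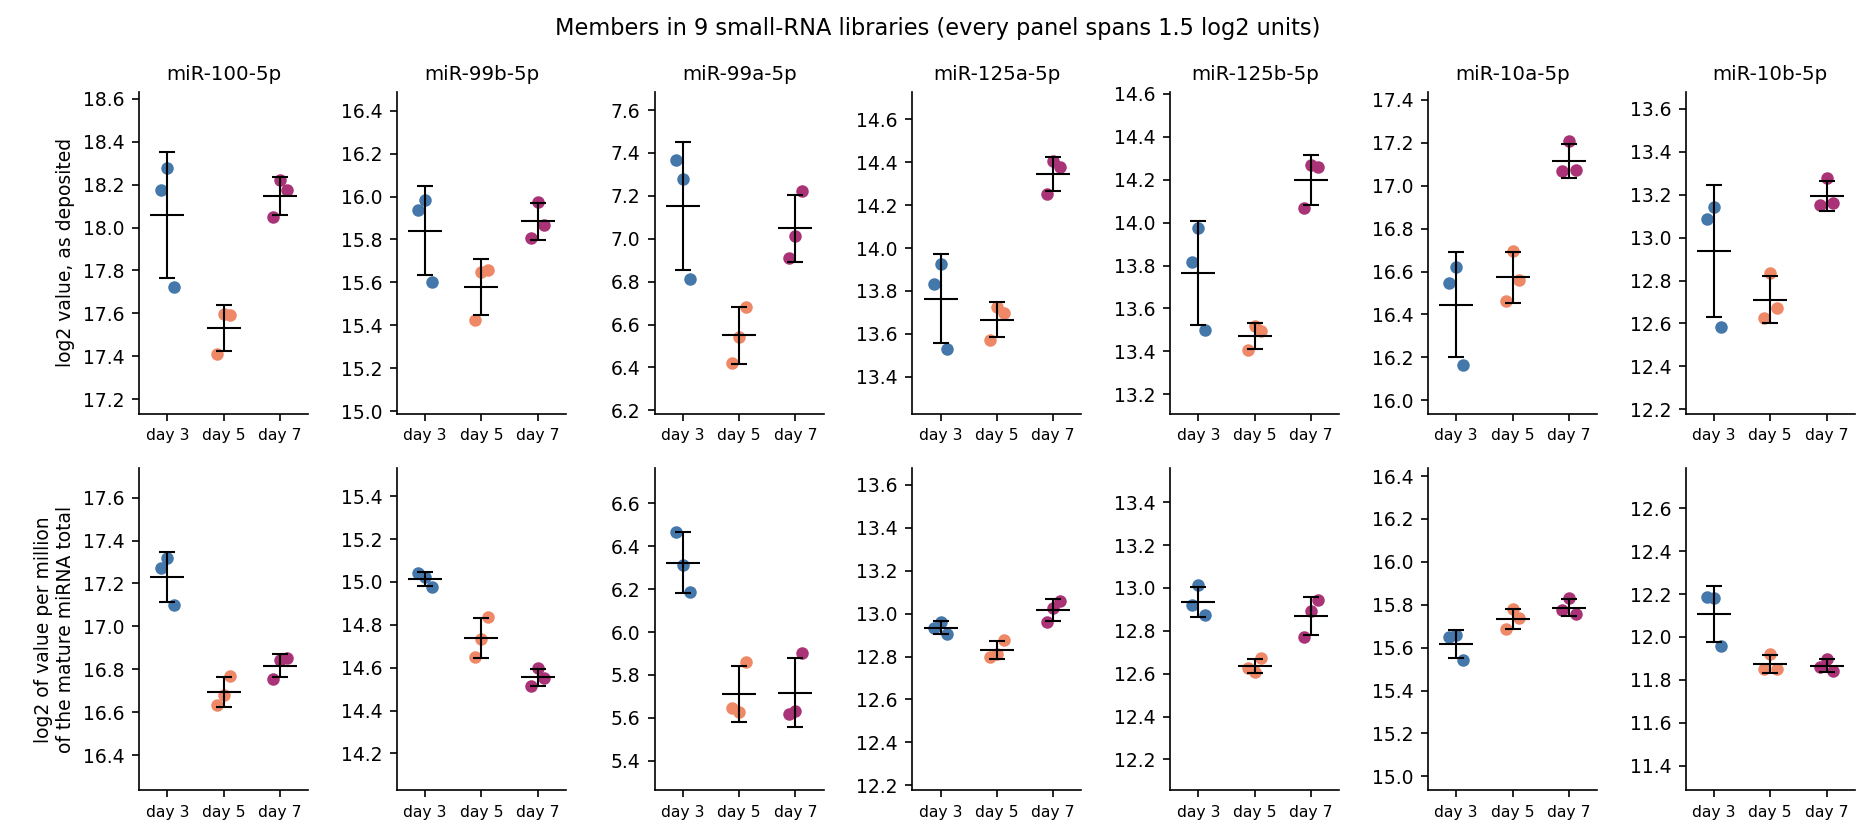
Each point is 1 small-RNAseq library, and bars show the mean and SD of 3 libraries on day 3 (blue), day 5 (orange) and day 7 (purple). The upper row gives the deposited log2 values and the lower row the log2 of the ppm of the mature miRNA total, and every panel spans 1.5 log2 units, so that distances compare across panels. miR-125a-5p, miR-125b-5p and miR-10a-5p are highest on day 7 in the upper row, while the members of the miR-99/100 family are highest on day 3 in the lower row.

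On day 5, miR-100-5p and miR-99a-5p were lower than on day 3 by a similar amount. miR-100-5p had deposited log2 values of 18.17, 18.28 and 17.72 in the 3 day 3 libraries, 17.41, 17.59 and 17.59 on day 5, and 18.05, 18.22 and 18.17 on day 7. The libraries of days 3 and 5 did not overlap, whereas those of days 3 and 7 did. Its log2 difference between day 5 and day 3 was -0.53 ± 0.16 (SE), which did not pass (limma, adjusted p = 0.0548), but it passed on library totals (-0.54 ± 0.08, adjusted p = 0.00782) and with median centring (-0.48 ± 0.10, adjusted p = 0.0146). In ppm, miR-100-5p stood at 158511, 163430 and 140461 on day 3, at 101692, 105052 and 111600 on day 5, and at 110598, 117420 and 118514 on day 7. On this scale every day 5 and day 7 library lay below every day 3 library.

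miR-99a-5p was lower on day 5 by a log2 difference of -0.60 ± 0.16 and passed on all 3 scales (limma, adjusted p = 0.0395 as deposited, 0.0101 on library totals and 0.0143 with median centring). The call on the deposited scale held without replicate 3 of day 3 and was lost without any other of the 6 libraries. Its deposited log2 values were 7.37, 7.28 and 6.81 on day 3, 6.42, 6.54 and 6.68 on day 5 and 6.91, 7.01 and 7.22 on day 7. The gap between the lowest day 3 and the highest day 5 library was small beside the spread of day 3. The ratio of miR-99a-5p to miR-100-5p within a library was 1 to 1921 on day 3, 1 to 2023 on day 5 and 1 to 2194 on day 7, with overlapping libraries. These mature sequences differ by 1 base (A16U), so a read with an error at that base can be counted for the other, and its part in the miR-99a-5p value was not tested.

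miR-99b-5p, from chromosome 19, was lower on day 5 by -0.26 ± 0.14 as deposited (limma, adjusted p = 0.234) and by -0.27 ± 0.07 on library totals, where alone it passed (adjusted p = 0.0329), a call that was lost without replicate 1 or 2 of either day. In ppm it stood at 33681, 33263 and 32250 on day 3, at 25703, 27254 and 29208 on day 5, and at 23408, 24796 and 23998 on day 7. The 3 days did not overlap on this scale, and each later day was lower than the one before. Between days 3 and 7 the direction of miR-99b-5p and miR-100-5p depended on the scale. As deposited, their log2 differences were 0.04 ± 0.13 and 0.09 ± 0.15, with neither passing, but on library totals they were -0.46 ± 0.06 and -0.41 ± 0.08 (limma, adjusted p = 0.00156 and 0.00693). miR-99a-5p was at -0.10 ± 0.16 as deposited and at -0.61 ± 0.11 on library totals (adjusted p = 0.00612).

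The miR-125 members were higher on day 7 than on day 5 on each of the 3 scales. miR-125a-5p had deposited log2 values of 13.83, 13.92 and 13.53 on day 3, 13.57, 13.73 and 13.70 on day 5 and 14.25, 14.41 and 14.38 on day 7. All day 7 libraries lay above those of the other days, which overlapped with each other. From day 5 to day 7 it rose by 0.68 ± 0.11 as deposited, by 0.49 ± 0.07 with median centring and by 0.19 ± 0.05 on library totals (limma, adjusted p = 0.00158, 0.000925 and 0.0168). miR-125b-5p rose by 0.73 ± 0.13, 0.53 ± 0.08 and 0.23 ± 0.06 on the same scales (adjusted p = 0.00179, 0.00152 and 0.0162). On library totals the calls of both were lost without replicate 2 of day 5 and without replicate 2 or 3 of day 7, and that of miR-125a-5p also without replicate 1 of day 5.

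In ppm, miR-125b-5p was at 7746, 8260 and 7514 on day 3, at 6332, 6234 and 6527 on day 5, and at 6996, 7595 and 7875 on day 7. It was lowest on day 5 in all 3 libraries, and days 3 and 7 overlapped. Its log2 difference between day 5 and day 3 was -0.29 ± 0.14 as deposited (limma, adjusted p = 0.202) and -0.30 ± 0.06 on library totals, where alone it passed (adjusted p = 0.0196), and this call held only without replicate 3 of day 3 when each library was left out in turn. Compared with day 3, on day 7 miR-125a-5p and miR-125b-5p were higher by 0.58 ± 0.13 and 0.44 ± 0.14 as deposited (adjusted p = 0.00584 and 0.0311) and by 0.44 ± 0.07 and 0.29 ± 0.09 with median centring (adjusted p = 0.0026 and 0.0287). Without replicate 2 or 3 of day 7, miR-125b-5p did not pass as deposited. On library totals their differences were 0.08 ± 0.06 and -0.07 ± 0.07, and neither passed.

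miR-10a-5p did not pass between days 3 and 5 on any of the 3 scales. Its deposited log2 values were 16.55, 16.62 and 16.17 on day 3, 16.46, 16.70 and 16.56 on day 5 and 17.07, 17.21 and 17.07 on day 7. Day 7 stood above both earlier days, which overlapped. Its difference between day 7 and day 3 was 0.67 ± 0.14 (limma, adjusted p = 0.00454), the largest of the members as deposited, with 0.53 ± 0.07 after median centring (adjusted p = 0.00142) and 0.17 ± 0.06 on library totals, where it did not pass (adjusted p = 0.0603).

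miR-10b-5p was lower on day 7 than on day 3 when set against the library totals. In ppm it was at 4668, 4639 and 3975 on day 3, at 3691, 3879 and 3687 on day 5, and at 3713, 3816 and 3669 on day 7. The later days overlapped with each other, and both lay below every day 3 library. Its log2 difference between day 7 and day 3 was -0.24 ± 0.08 on library totals (limma, adjusted p = 0.0437) but 0.26 ± 0.16 as deposited and 0.12 ± 0.09 with median centring, which did not pass. Between day 5 and day 3 it was at -0.24 ± 0.08 on library totals and did not pass (limma, adjusted p = 0.0905). The call on library totals was lost without any 1 of the 6 libraries other than replicate 3 of day 3.

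Counted over the members, 1 of 7 passed on day 5 against day 3 as deposited, lower, where 14.8% of the 539 miRNAs tested passed, 8.53% as higher and 6.31% as lower. Without replicate 3 of day 3, 5 of 7 passed as lower, where 22.1% of 533 miRNAs passed. Without any other of the 6 libraries 0 members did by limma, with 2 at an unadjusted p under 0.05. In those fits 6.77% to 8.90% of all miRNAs passed, so the share over all miRNAs moved in the same direction. On library totals 4 of 7 passed, all lower (25% of all miRNAs passed, 13.4% as higher and 11.7% as lower), and with median centring 2 of 7, both lower (23% passed, 15.2% as higher and 7.79% as lower). On library totals the count was 2 of 7 without replicate 1 or 2 of either day, 3 without replicate 3 of day 5 and 5 without replicate 3 of day 3. The share of all miRNAs in these fits is not given here, so these counts cannot be set against it.

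Between day 7 and day 3, 3 of 7 were higher as deposited, where 53.7% of 559 passed, 45.3% as higher and 8.41% as lower. With median centring the count was also 3 of 7, all higher (48.7% passed, 38.1% as higher and 10.6% as lower), while on library totals 4 of 7 were lower (57.1% passed, 16.6% as higher and 40.4% as lower). Read against these shares, the members passed about as often as other miRNAs. Between day 7 and day 5, 6 of 7 were higher as deposited, all but miR-99b-5p, where 44.3% of 567 passed, 39.3% as higher and 4.94% as lower. Median centring left 5 of 7, all higher (36% passed, 26.1% as higher and 9.88% as lower), and library totals 2 higher and 1 lower (54% passed, 10.6% as higher and 43.4% as lower).

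The libraries of days 3 and 5 did not overlap for 2 of 7 members as deposited, where this held for 34% of all miRNAs tested, and for all 7 on library totals (44.2%). For days 3 and 7 they did not overlap for 4 of 7 as deposited (65.7% of all) and 5 of 7 on library totals (66.9%). For days 5 and 7 the numbers were 7 of 7 as deposited (62.4%) and 3 of 7 on library totals (66.3%).

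Because the scale shifts every miRNA of a library alike, the difference of a member from the median of all tested miRNAs does not depend on it. That median was 0.07, 0.30 and 0.26 as deposited (day 5 vs 3, day 7 vs 3 and day 7 vs 5) and 0.06, -0.20 and -0.24 on library totals. For day 5 against day 3, 6 of 7 lay below the median, from -0.68 for miR-99a-5p to -0.17 for miR-125a-5p, and miR-10a-5p was at 0.05. For day 7 against day 3, miR-10a-5p, miR-125a-5p and miR-125b-5p lay above the median, by 0.37, 0.28 and 0.13. miR-99a-5p, miR-99b-5p and miR-100-5p lay below it, at -0.41, -0.26 and -0.22, and miR-10b-5p was at -0.04. For day 7 against day 5 all 7 lay above it, from 0.05 for miR-99b-5p to 0.47 for miR-125b-5p.

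**Figure D2:**
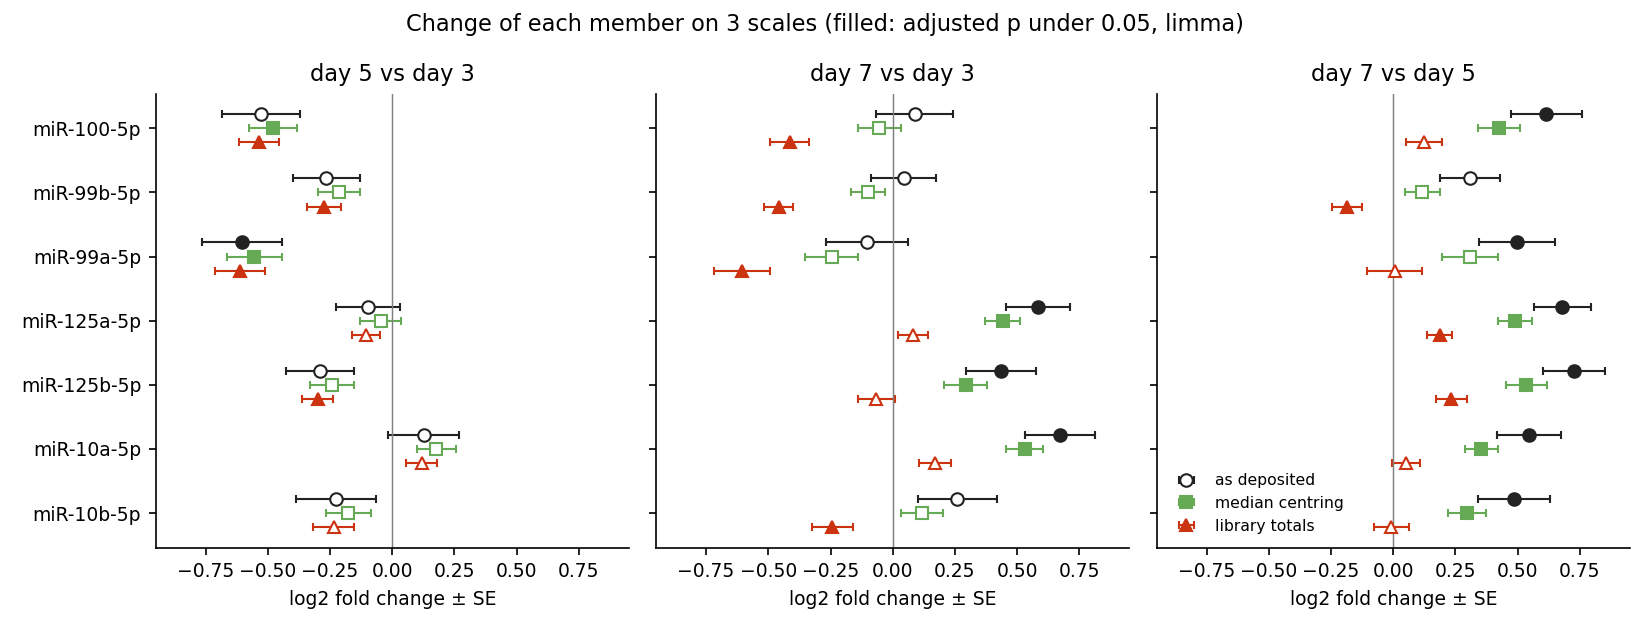
Log2 fold changes of the 7 members with their SE for 3 comparisons, as deposited (black circles), with median centring (green squares) and on library totals (red triangles), filled where the limma adjusted p was under 0.05. The 3 scales lie close together for day 5 vs day 3, and for both comparisons of day 7 library totals lie below the deposited scale for each member.

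The shares of the families within a library do not depend on the scale. The miR-125 family made up 1.57% ± 0.0539 of the mature miRNA total on day 3, 1.36% ± 0.0347 on day 5 and 1.58% ± 0.0739 on day 7 (SD, n = 3). Day 5 did not overlap with either other day (two-sided exact permutation test, p = 0.1 for each, 0.18 adjusted over the 9 share tests), and 0.1 is the smallest p that 3 libraries against 3 allow. Days 3 and 7 differed by 0.0105 percentage points (exact p = 0.9). The miR-10 family stood at 5.47% ± 0.267, 5.83% ± 0.190 and 6.03% ± 0.160, and day 7 lay above day 3 without overlap (exact p = 0.1, adjusted 0.18). The miR-99/100 family was the largest, with 17.3% to 19.7% on day 3, 12.7% to 14.1% on day 5 and 13.4% to 14.3% on day 7. Both later days lay below day 3 without overlap (exact p = 0.1, adjusted 0.18), and they overlapped with each other.

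Within each family the make-up shifted a little. miR-100-5p held 82.3% ± 0.894 of the miR-99/100 family on day 3, 79.5% ± 0.295 on day 5 and 82.7% ± 0.351 on day 7, nearly all of the rest being miR-99b-5p. miR-125a-5p held 50.0% ± 0.719, 53.3% ± 0.366 and 52.5% ± 0.634 of the miR-125 family. miR-10a-5p held 91.9% ± 0.336, 93.6% ± 0.106 and 93.8% ± 0.0398 of the miR-10 family. In the miR-125 and miR-10 families both later days lay above day 3 without overlap, and in the miR-99/100 family only day 5 stood apart.

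Ratios between members in the same library show whether products of 1 cluster changed by the same factor. For miR-125a-5p and miR-99b-5p, which come from hairpins 572 bases apart on chromosome 19, the ratio differed between days in these libraries. With 3 libraries a day the exact test cannot go below 0.1, so it cannot settle this. The log2 ratio of miR-125a-5p to miR-99b-5p was -2.10, -2.06 and -2.07 on day 3, -1.85, -1.92 and -1.96 on day 5 and -1.55, -1.57 and -1.49 on day 7. No 2 days overlapped, and on day 7 it was 0.54 higher than on day 3, as miR-99b-5p went from 4.22 to 2.91 times the level of miR-125a-5p (two-sided exact permutation test, p = 0.1, 0.125 adjusted over 5 ratios). let-7e-5p, from the hairpin between them, differed from miR-99b-5p in the same direction, with a log2 ratio of -4.02 ± 0.0400 on day 3, -3.53 ± 0.0915 on day 5 and -3.38 ± 0.0677 on day 7 (SD, n = 3).

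In the chromosome 11 cluster, the log2 ratio of miR-125b-5p to miR-100-5p was -4.36, -4.31 and -4.22 on day 3, -4.01, -4.07 and -4.10 on day 5 and -3.98, -3.95 and -3.91 on day 7. The 3 days did not overlap, and day 7 was 0.35 above day 3 (exact p = 0.1, adjusted 0.125). Between the clusters, miR-125a-5p rose by 0.15 against miR-125b-5p from day 3 to day 7 without overlap (exact p = 0.1, adjusted 0.125). The ratio of miR-99b-5p to miR-100-5p differed by -0.04 between day 7 and day 3 (exact p = 0.4), although it was 0.26 higher on day 5 than on day 3, with no overlap. miR-10b-5p fell against miR-10a-5p in each library of the later days. Their log2 ratio was -3.46, -3.48 and -3.58 on day 3, -3.84, -3.86 and -3.89 on day 5 and -3.92, -3.93 and -3.92 on day 7, a difference of -0.41 between days 7 and 3 (exact p = 0.1, adjusted 0.125).

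**Figure D3:**
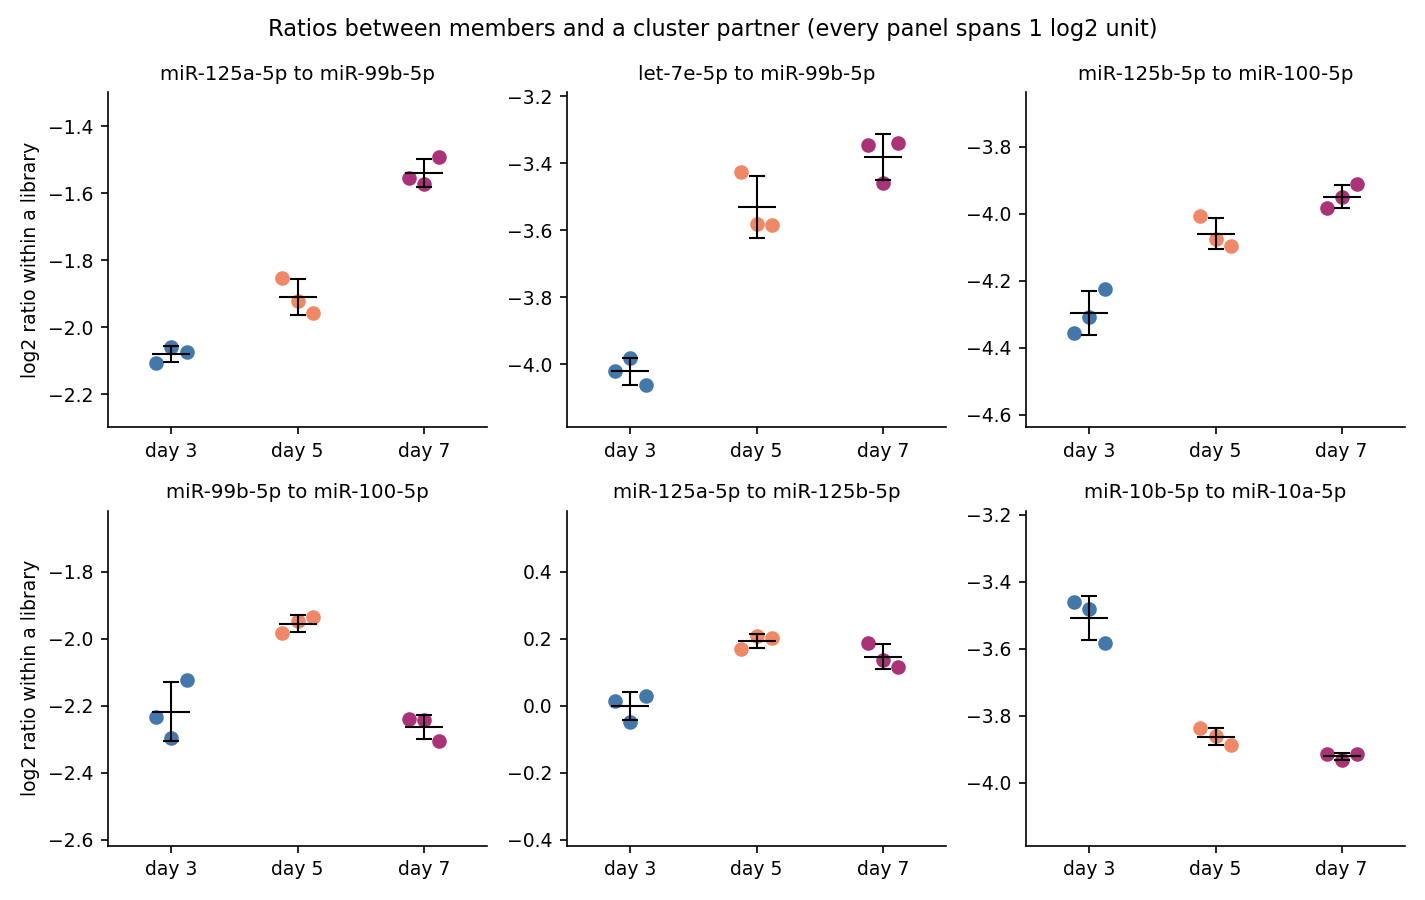
Log2 ratios of pairs of miRNAs within each small-RNAseq library, by day, with the mean and SD of 3 libraries, where every panel spans 1 log2 unit. The ratio of miR-125a-5p to miR-99b-5p goes from a mean of -2.08 to -1.54 and that of miR-10b-5p to miR-10a-5p from -3.51 to -3.92, while miR-99b-5p to miR-100-5p has means of -2.22, -1.95 and -2.26 on the 3 days.

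The opposite arms of the same hairpins were less abundant and did not keep a fixed ratio to the members. miR-100-5p exceeded miR-100-3p by a log2 ratio of 6.88 ± 0.0967 on day 3, 6.52 ± 0.136 on day 5 and 6.92 ± 0.127 on day 7 (SD, n = 3), with day 5 apart from both other days. miR-125b-5p against miR-125b-1-3p, the arm particular to the chromosome 11 hairpin, went from 2.11 ± 0.0166 to 1.86 ± 0.0653 and then to 2.33 ± 0.0830, and no 2 of the days overlapped. For miR-125a-5p against miR-125a-3p and miR-99b-5p against miR-99b-3p, the log2 ratios differed by -0.41 and -0.31 between day 5 and day 3, without overlap. miR-10a-5p against miR-10a-3p stood at 8.30 ± 0.108, 8.33 ± 0.0458 and 8.70 ± 0.133, with day 7 above both earlier days. On library totals, miR-99b-3p, miR-100-3p and miR-125b-1-3p were lower on day 7 than on day 3 (log2 differences of -0.30, -0.45 and -0.29, limma, adjusted p = 0.0119, 0.00437 and 0.00988), although as deposited they were at 0.20, 0.05 and 0.22 and did not pass. miR-10b-3p was also lower on library totals (-0.68 ± 0.12, limma, adjusted p = 0.00464) and did not pass as deposited (-0.18) or with median centring (-0.32), with 5.62 to 6.75 ppm on day 3 and 3.38 to 4.25 ppm on day 7. Of the chromosome 11 cluster, let-7a-2-3p was lower on day 7 than on day 3 by -0.66 ± 0.07 on library totals and -0.30 ± 0.08 with median centring (limma, adjusted p = 0.00091 and 0.021), and at -0.16 as deposited it did not pass. The 5p arms of the let-7 cluster partners were higher. An identical let-7a-5p comes from hairpins on chromosomes 9, 11 and 22, so its value is not particular to the chromosome 11 cluster. Between day 7 and day 3, let-7a-5p, let-7c-5p and let-7e-5p differed by 0.83, 1.01 and 0.68 as deposited (limma, adjusted p = 0.00107, 0.000269 and 0.00382). On library totals they differed by 0.33, 0.51 and 0.18 (limma, adjusted p = 0.00464, 0.00131 and 0.0482), and each passed with median centring. let-7e-3p was lower on library totals alone (-0.21, limma, adjusted p = 0.0396). miR-125a-3p was higher on day 7 than on day 3 as deposited (0.67 ± 0.12, limma, adjusted p = 0.00231) and did not pass on library totals (0.17 ± 0.09).

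From the chromosome 21 cluster, the 3p arms were at the bottom of the table. miR-99a-3p, miR-125b-2-3p and let-7c-3p had deposited log2 values between -2.42 and -1.71 in all 9 libraries, where the lowest value of the table is -2.64, and they were not tested. miR-99a-5p and let-7c-5p, which were detected with mean deposited log2 values of 6.55 to 7.15 and of 7.74 to 8.75 on the 3 days, differ by single substitutions (A16U and A19G) from miR-100-5p and let-7a-5p, which the chromosome 11 cluster also gives. The part of chromosome 21 in the miR-125b-5p value was not measured. miR-4319 and miR-670-5p, listed for seeds like that of miR-125, are not in the table.

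**Figure D4:**
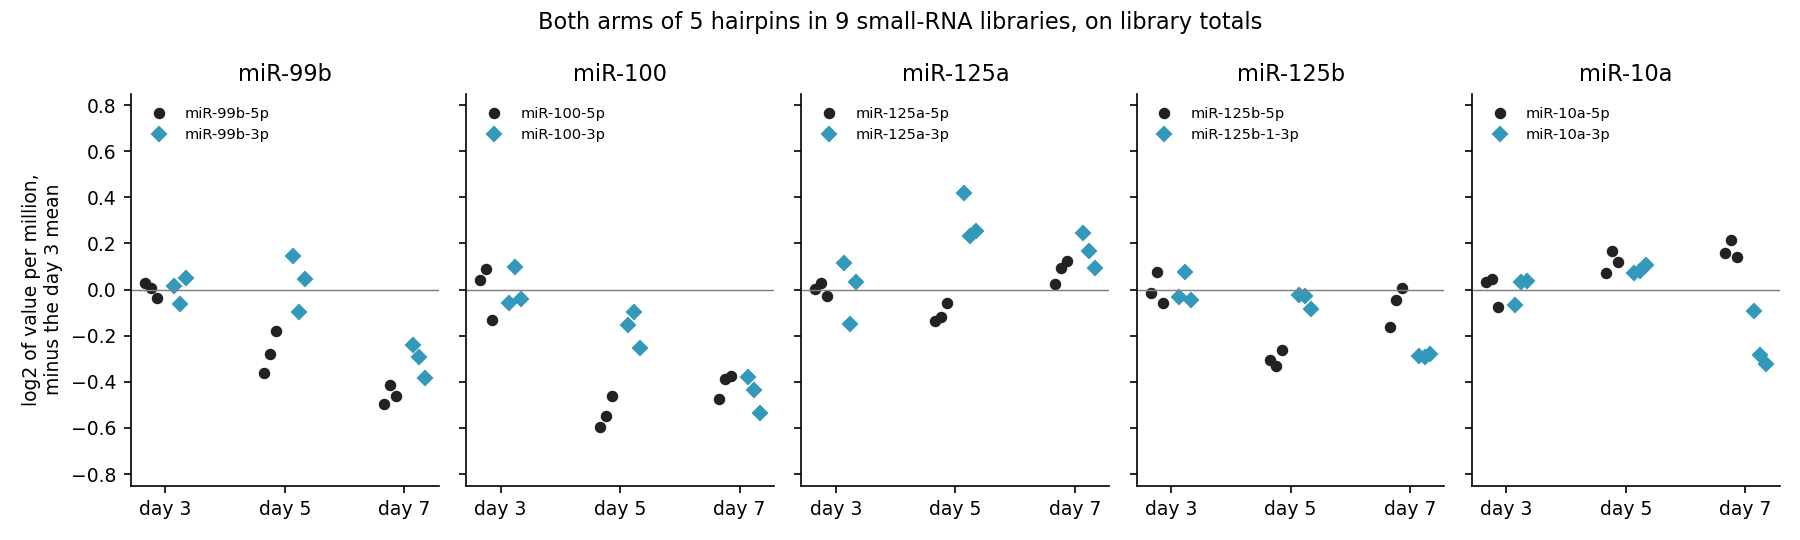
Log2 of the ppm of the mature miRNA total, minus its day 3 mean, for the member (black circles) and the opposite arm (blue diamonds) of 5 hairpins in each library. On day 5 the points of miR-99b-3p, miR-100-3p, miR-125a-3p and miR-125b-1-3p lie above those of their 5p arms, and on day 7 those of miR-125b-1-3p and miR-10a-3p lie below theirs.

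The miRNAs most like 3 of the members were sought by Pearson correlation of log2 ppm over the 9 libraries, among the 85 other miRNAs that averaged at least 1000 ppm, as a description. For miR-100-5p these were miR-96-5p (r = 0.98), miR-615-3p (r = 0.93) and miR-148a-3p (r = 0.92). For miR-125a-5p they were miR-151a-5p (r = 0.94), miR-23a-3p (r = 0.86) and miR-27b-3p (r = 0.84). For miR-10a-5p they were miR-151a-3p (r = 0.97), miR-28-3p (r = 0.90) and miR-210-3p (r = 0.90), the last a miRNA known for its induction by hypoxia. The points share 3 days and the library totals, so miRNAs with like differences between days correlate.

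Host and neighbour genes of the hairpins were compared between day 5 and day 3 in the whole transcriptome libraries, which held 27470978 to 56689369 recovered reads each. Of 14 gene names listed, 12 were in the table and 10 were tested, of which 4 were higher and 6 did not pass (limma on log2(value + 1), where 56.9% of 20129 genes passed, 29.3% as higher). MIR100HG, the host of miR-100, had normalized counts of 6496, 6148 and 5316 on day 3 and 5183, 5380 and 5652 on day 5, and the days overlapped. Its log2 difference of -0.14 ± 0.10 did not pass (adjusted p = 0.270), nor did that of BLID, a small gene on the same strand within MIR100HG (-0.16 ± 0.08, adjusted p = 0.137), whose reads could be shared with it. SPACA6, the host of the chromosome 19 cluster and known for a role in fertilization, was at 160 ± 15.0 on day 3 and 175 ± 22.9 on day 5 (SD, n = 3), and the neighbouring SPACA6P-AS was at 44.9 ± 17.5 and 70.1 ± 20.0. Neither passed. MIR99AHG, the chromosome 21 host, had 0 or 1 reads in every library.

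The genes around MIR10A in the HOXB cluster were higher on day 5. HOXB3 had normalized counts of 708, 663 and 574 on day 3 and 927, 1101 and 933 on day 5, with no overlap, and a log2 difference of 0.61 ± 0.12 (limma, adjusted p = 0.00614). HOXB4 was higher by 0.80 ± 0.09 and HOXB5 by 0.57 ± 0.09 (adjusted p = 0.000635 and 0.00296). Annotated HOXB3 overlaps HOXB4 and HOXB5 on the same strand, so reads could be shared between HOXB3 and each of them. The 3 may therefore not be separate measurements, and the sharing of reads was not tested. HOXB-AS3, on the opposite strand, had 6 to 23 reads per library and did not pass. Around MIR10B, HOXD8 was higher by 0.36 ± 0.10 (adjusted p = 0.0233), a call lost by edgeR, by DESeq2 and without replicate 1 or 2 of day 3 or 2 or 3 of day 5. HOXD3 was at 34.6 ± 2.69 on day 3 and 26.4 ± 8.49 on day 5 (SD, n = 3) without passing by limma (adjusted p = 0.195), and HOXD4 had 0 to 6 reads. No entry carries the name SPACA6-AS1 or HOXD-AS2, and other names of these genes were not looked up.

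Entries named for the hairpins were looked at after their values were seen. MIR100 was higher on day 5 by 0.57 ± 0.09 (limma, adjusted p = 0.0031), from normalized counts of 16.7, 15.5 and 15.6 on day 3 to 21.7, 24.7 and 25.9 on day 5, which rest on 11 to 25 reads per library. The mature miR-100-5p was lower on that day. MIR125B1 and MIRLET7A2 differed by -0.08 ± 0.11 and 0.06 ± 0.14 and did not pass. Reads on these entries also lie in MIR100HG introns and cannot be told apart from its unspliced RNA.

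Genes reported as targets of the families were listed from general knowledge, and of 46 different genes 44 were tested. Earlier results of these data were known when the lists were made, so the counts are not independent of them. On day 5 against day 3, 27 of them were higher and 2 lower, beside 29.3% higher and 27.6% lower over all genes, and their median log2 difference was 0.63 beside 0.01 over all genes. All genes listed have an annotated 3′UTR. Over the 13057 tested genes with one, 37.8% were higher and 28.1% lower, with a median of 0.12. For miR-99/100, 10 of 14 were higher and 4 did not pass. For miR-125, 8 of 16 tested were higher and 1 lower, and for miR-10, 9 of 15 were higher and 1 lower. HOXB3, whose reads could be shared with HOXB4 and HOXB5, is among the higher genes of the miR-10 list. It was also counted among the host and neighbour genes. The lower gene of the miR-125 list was LIN28B, which passed the filter on low values through the day 3 libraries alone and so, under that filter, could only be tested because it was higher there. The epithelial markers CDH1, KRT8, KRT18, KRT19, CLDN4 and CDX2, which are in none of the 3 lists, were also higher (limma), with a median of 1.05 over the 7 epithelial markers tested. Among genes of the lists with a seed match to their family in the longest annotated 3′UTR, 7 of 10 were higher for miR-99/100, 8 of 15 for miR-125 and 8 of 13 for miR-10. Of the 7 tested without one, over the 3 lists, 4 were higher.

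In the miR-99/100 list the largest differences were those of the insulin receptor INSR (1.82 ± 0.08), the growth factor receptor IGF1R (1.81 ± 0.07), the chromatin factor BAZ2A (1.51 ± 0.11) and the pseudokinase TRIB2 (0.99 ± 0.09), each with adjusted p under 0.05 by limma. IGF1R had normalized counts of 509, 529 and 527 on day 3 and 1760, 1902 and 1836 on day 5, which are far apart. The paper had picked IGF1R partly because its RNA was higher at high density in the same RNAseq series. Its rise here is therefore not independent of that choice. MTOR and RPTOR, the kinase of the mTOR pathway and its partner, were higher by 0.44 ± 0.11 and 0.62 ± 0.09 (adjusted p = 0.0145 and 0.00194). Seed matches (TACGGGT, in capitals, in the sense strand of the 3′UTR, GRCh38) are shown for the genes of this list that are named here and hold one, to show the letters that were matched, with the first of the 2 in BAZ2A.
IGF1R, chr15:98963032-98963052, plus strand: agtccagtagatTACGGGTag
TRIB2, chr2:12742018-12742038, plus strand: cagtacttcaatTACGGGTtg
BAZ2A, chr12:56597995-56598015, minus strand: aaaactatcgtgTACGGGTtc
MTOR, chr1:11107182-11107202, minus strand: taactttagaaaTACGGGTtt
RPTOR, chr17:80964724-80964744, plus strand: cgctggggctccTACGGGTcc
INSR holds no match in the 4801 bases searched.

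In the miR-125 list, PRDM1, a transcriptional repressor that acts in lymphocyte and epithelial differentiation, had normalized counts of 21.9, 30.9 and 28.4 on day 3 and 258, 257 and 261 on day 5, a log2 difference of 3.22 ± 0.13 (limma, adjusted p = 0.000128). The DNA-binding protein ARID3A was higher by 2.05 ± 0.08 and the pro-apoptotic BMF by 1.46 ± 0.12. LIN28B, which blocks let-7 maturation, was lower by 1.69 on the log2 scale (-1.69 ± 0.29, adjusted p = 0.00373), from 27.2, 11.7 and 18.4 on day 3 to 5.42, 5.36 and 4.14 on day 5. It rests on 63 reads over the day 3 libraries and 14 over those of day 5, and it passed the filter on low values through the 3 day 3 libraries alone, so that it was not tested without any 1 of them. Its relative LIN28A, at 18 to 39 reads per library, did not pass, and IRF4 had 3 to 5. The first seed matches (CTCAGGG) in these 3′UTRs are as follows.
PRDM1, chr6:106107640-106107660, plus strand: agttactgaaatCTCAGGGca
ARID3A, chr19:973492-973512, plus strand: ccaggctcctgtCTCAGGGat
BMF, chr15:40091152-40091172, minus strand: cctccagcagacCTCAGGGag
LIN28B, chr6:105081119-105081139, plus strand: caaagaactttgCTCAGGGaa

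In the miR-10 list the transcription factor KLF4 (2.16 ± 0.12), the repressor BCL6 (1.81 ± 0.09) and the Rac activator TIAM1 (0.97 ± 0.08) were among the genes that differed most, each with adjusted p under 0.05 by limma. KLF4 had normalized counts of 289, 338 and 363 on day 3 and 1338, 1542 and 1535 on day 5, with no overlap. MAP3K7, the kinase TAK1, was the gene that was lower (-0.33 ± 0.07, adjusted p = 0.00741), and HOXD10 had 3 to 5 reads per library. KLF4 holds no match to the miR-10a seed (ACAGGGT), and BCL6 and TIAM1 hold 1 each.
BCL6, chr3:187721457-187721477, minus strand: actactccggagACAGGGTtt
TIAM1, chr21:31119197-31119217, minus strand: catgccaacgaaACAGGGTaa

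**Figure D5:**
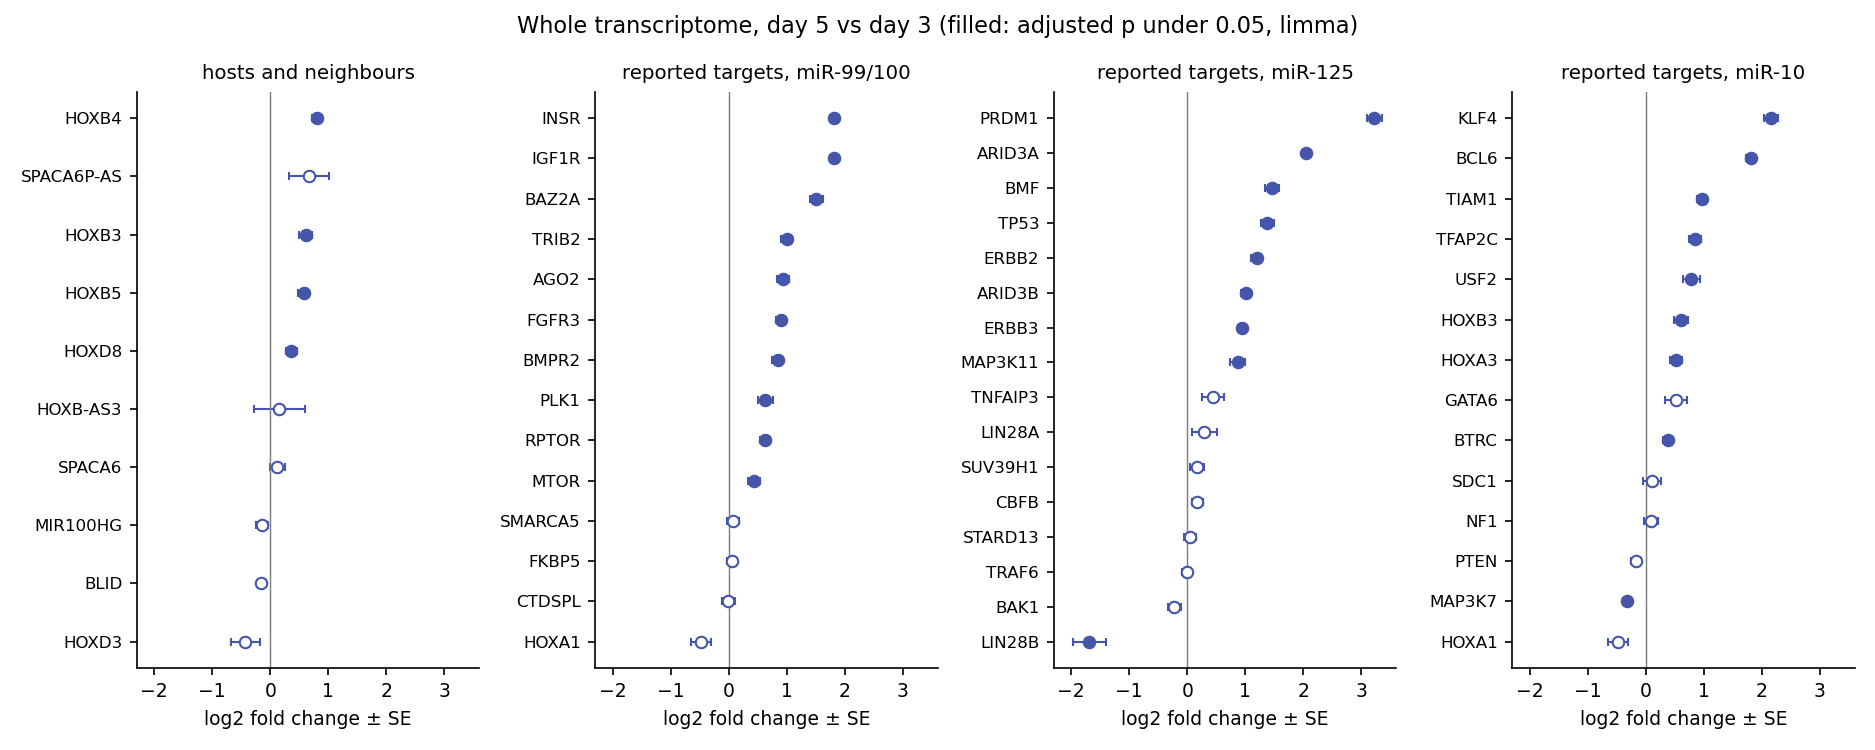
Log2 fold changes between day 5 and day 3 with their SE, from limma on log2(value + 1), for the tested host and neighbour genes and tested genes of the 3 target lists, filled where the adjusted p was under 0.05. Most filled points lie to the right of 0 in every panel, and LIN28B and MAP3K7 are the filled points to the left.

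The same matches were counted over all 13057 tested genes with an annotated 3′UTR, on the sense strand only. TACGGGT occurred in 180 genes (1.38%), whose median log2 difference on day 5 was 0.27 beside 0.12 over all of them, with 47.2% higher and 18.9% lower. CTCAGGG occurred in 2278 genes (17.4%), with a median of 0.41, 53% higher and 16.4% lower. ACAGGGT occurred in 2056 genes (15.7%), with a median of 0.17, 41.4% higher and 24.9% lower. Over all these genes 37.8% were higher and 28.1% lower. Between single libraries of day 5 and day 3 the difference of the median from that of all genes ranged from 0.13 to 0.23, from 0.25 to 0.31 and from 0.03 to 0.08. The 3 sets had longer 3′UTRs than the 1475 bases at the median of all genes, with medians of 3558, 2665 and 3198 bases, and those with CTCAGGG had 48.9% G and C beside 43.1%. The part of length and base composition in these differences was not tested.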

How the data were processed

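Small RNAs and the whole transcriptome of wild-type HCT116 whole cell RNA were sequenced by the authors. According to the methods, small RNA libraries were made with a TruSeq Small RNA kit, trimmed with Cutadapt and mapped to mature and hairpin miRNA sequences of GRCh37, with TMM in edgeR. The authors deposited log2 values of 2167 mature miRNAs, and the total they are scaled to is not given in the sources used here. The methods give a range of sequenced reads but the files give no counts per miRNA, so no counting error is given. The whole transcriptome signal deposited by the authors is a normalized value for each of 38055 genes, mapped strand-specifically to hg38 with Ensembl genes in CLC Genomics Workbench. Divided by the worth of 1 read in its library, 100% of these values came out whole (tolerance 0.05), which gave 27470978 to 56689369 reads per library. The submitters' processing notes also name FastQC 0.11.8 and MultiQC 1.7. Columns in the same tables that hold the authors' own comparisons (fold changes and p-values) were left aside.

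Groups and replicate numbers came from the labels, which call the replicates biological without naming separate cultures. limma 3.58.1 (R 4.3.3) was fitted to the log2 values, or to log2(value + 1) for genes, with Benjamini-Hochberg adjustment over all features tested and a threshold of 0.05, and a fold change with the pseudocount understates low genes. Features were kept if 3 or more of the libraries compared had a value of 10 or higher. Comparisons with day 3 used their own 6 libraries, and day 7 against day 5 was taken from a fit of all 9. For shares and ratios within libraries, two-sided exact permutation tests were used. No covariate was used. On simulated data, limma called 193 of 200 miRNAs changed 2-fold (96.5%, of 559, for day 7 against day 3) with 7 false calls, and 120 of 194 genes (61.9%, of 19711, for day 5 against day 3) with 11 false calls. The simulated noise was drawn for each feature by itself, without a shift common to a whole library. No member differed by 2-fold, so the miRNA figures do not say how often changes as small as theirs are found.

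The members and gene lists were chosen with earlier results of these data known. Named were all members, their opposite arms and cluster partners, host and neighbour genes, the 4 called genes with the largest change per target list, genes with a level near 0, and the 3 most alike miRNAs. Listed targets with a change near 0 were counted with their lists but not named in the text. For 1 gene of the miR-10 list, which is counted with the list, values are not reported here. MTOR, RPTOR, MAP3K7, LIN28A, the genes named for hairpins and the ratios to let-7e-5p, miR-99a-5p and opposite arms were added after seeing values. Loci and 3′UTRs (the longest per gene) came from GENCODE 44 on GRCh38, and mature sequences from RefSeq. Alternatives were library totals, median centring, no filter, a pseudocount of 0.1, a replicate block, other libraries in the fit, each library left out, a 2-fold minimum, and edgeR 4.0.16 and DESeq2 1.42.0 on recovered reads. Library totals with a library left out or a block, and all alternatives for seed matches, were chosen after seeing the data. Other steps ran in Python 3.11.15 (scipy 1.17.1, pandas 2.3.3, numpy 2.4.6), and matplotlib 3.10.9 drew the plots.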

Additional observations from a re-analysis of the deposited data

Results flagged for a closer look

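For 6 of the 7 members the difference from day 3 was not the same on day 7 as on day 5, by the limma test of day 7 against day 5 over all 9 libraries. On the deposited scale day 7 was higher by 0.50 for miR-99a-5p, 0.62 for miR-100-5p, 0.68 for miR-125a-5p, 0.73 for miR-125b-5p, 0.54 for miR-10a-5p and 0.49 for miR-10b-5p (limma, adjusted p = 0.0242, 0.00723, 0.00158, 0.00179, 0.00821 and 0.0212), in each of the 3 libraries of day 7 against each of day 5. On library totals the same differences were 0.01, 0.12, 0.19, 0.23, 0.05 and -0.01, of which those of miR-125a-5p and miR-125b-5p passed. Over all miRNAs 39.3% were higher on day 7 than on day 5 as deposited and 10.6% on library totals. As deposited, the calls of miR-99a-5p and miR-10b-5p were lost without single libraries, and their differences without 1 library ranged from 0.41 to 0.57 and from 0.44 to 0.55.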

How the results depend on the processing

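On day 5 against day 3 the number of members that passed went from 1 as deposited to 4 on library totals, 2 with median centring, 2 with all 9 libraries in one fit, and 0 by limma with no filter, a 2-fold minimum or a replicate block (2 members at an unadjusted p under 0.05 in each). In the same order of settings, 14.8%, 25.0%, 23.0%, 18.9%, 2.31%, 2.60% and 13.2% of all miRNAs passed. A 2-fold minimum also left 0 of 3 for day 7 against day 3 and 0 of 6 for day 7 against day 5 by limma (3 and 7 at an unadjusted p under 0.05), since no member differed by 2-fold. For day 7 against day 5, library totals gave 3 and no filter 2. On day 7 against day 3 the direction turned on library totals for miR-99b-5p (-0.46), miR-100-5p (-0.41), miR-125b-5p (-0.0668) and miR-10b-5p (-0.24), and with median centring for miR-99b-5p (-0.10) and miR-100-5p (-0.0539). On day 7 against day 5 it turned on library totals for miR-99b-5p (-0.18) and miR-10b-5p (-0.00727). Apart from the scale, the cause was not tested.

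Leaving out each library in turn gave 0 to 5 members passing on day 5 against day 3, 2 to 3 on day 7 against day 3 and 4 to 6 on day 7 against day 5. Of all miRNAs, 6.77% to 22.1%, 39.9% to 53.6% and 31.1% to 41.9% passed in the same fits. On day 5 against day 3, 5 members passed without replicate 3 of day 3, and 0 without any other library of those 2 days. The sign changed within the leave-one-out ranges of miR-10a-5p on day 5 against day 3 (-0.0128 to 0.22), of miR-99a-5p (-0.27 to 0.00418), miR-99b-5p (-0.0763 to 0.114) and miR-100-5p (-0.0793 to 0.20) on day 7 against day 3, of the miR-125 share (-0.0216 to 0.0509 percentage points) and the ratio of miR-99b-5p to miR-100-5p (-0.0839 to 0.00303) on day 7 against day 3, and of HOXB-AS3 (-0.17 to 0.35). On library totals it changed for day 7 against day 5 in miR-99a-5p (-0.0868 to 0.0803) and miR-10b-5p (-0.0233 to 0.0169). The other shares and ratios kept their direction. The median of genes with CTCAGGG minus that of all genes went from 0.29 to 0.24 with no filter. The replicate block changed the call of no member but miR-99a-5p on day 5 as deposited (-0.60), gave 5 host and neighbour genes instead of 4, and on library totals took away the calls of miR-99b-5p (-0.27) and miR-125b-5p (-0.30) on day 5 against day 3, miR-10b-5p (-0.24) on day 7 against day 3 and miR-99b-5p on day 7 against day 5. The labels do not say what the replicate numbers share. Same-numbered libraries of days 3 and 5 had correlations of their deviations from the day means of 0.0865, 0.116 and 0.114 (small-RNAseq), with each of the 6 correlating best with its own number, whereas this held for 3 of 6 between days 3 and 7, 1 of 6 between days 5 and 7 and 3 of 6 in the whole transcriptome (-0.0112 to 0.0343). Leave-one-out fits assume that the remaining libraries vary alike. The files do not give the reads behind a small-RNAseq value, and 3 libraries a day limit each exact test to p = 0.1.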
